A study of Homo sapiens with 3 samples.

Results

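Wide initiation zones are broad stretches of DNA in which replication was scored to start in more than 1 replicate of untreated HCT116 cells, an established human colorectal cancer line. A zone was built from regions of at least 10000 bases on chromosomes 1 to 22, reported by the broad-domain caller EPIC2, that held at least 1 single-base summit from the narrow-peak caller MACS2 in the same replicate. Regions that overlapped by at least 1 base were merged over replicates, and the merged stretch was kept where at least 2 replicates contributed. The rule left 517 zones. By the same steps with no limit on width there were 42075 consensus origins in all, of which 41995 lay on chromosomes 1 to 22. The zones took in 498 of these, and the 41497 consensus origins that overlapped no zone are called other consensus origins here. Width, presence of a summit and recurrence chose the zones, so these values describe the set and carry no test.

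DNA replication in human cells starts at many origins, and only some of them fire in any one cell cycle. Broad initiation zones are stretches in which starts are scattered over several sites rather than fixed at a single one, and they often lie in gene-rich, early-replicating DNA. Short nascent strand sequencing (SNS-seq) reads these starts by purifying short single strands of new DNA. Each such strand carries an RNA primer at its 5′ end that protects it from lambda exonuclease, an enzyme that digests broken DNA from that end.

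The study used 3 replicates of HCT116 cells, all untreated and grown in RPMI medium. They form 1 group with no other genotype, treatment or time, and a cell line stands for 1 tumour. Read depth is unknown, since the files list positions of calls without reads. With 3 replicates, a two-sided exact sign test cannot go below p = 0.25, and values are therefore given per replicate with the mean and SD. Coordinates are hg19, with both ends included. No gene annotation or sequence of that build was used, so zones are named by position.

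The replicates contributed unequally. Of 123901 EPIC2 regions on chromosomes 1 to 22 in replicate 1, 1002 (0.809%) were at least 10000 bases wide. Replicate 2 had 359 among 44289 (0.811%), and replicate 3 had 3180 among 78782 (4.04%). Replicate 3 thus had the most wide regions without having the most regions. A summit of the same replicate lay in 985, 265 and 2723 of the wide regions, a mean of 1324 ± 1264 (SD, n = 3), and 55.3%, 64.5% and 21.2% of those recurred and entered a zone. At the threshold, 71, 34 and 199 regions were exactly 10000 bases wide, and 48, 45 and 192 were 9800 bases wide, 1 step of the 200-base EPIC2 grid lower. Regions thus continued across the limit with no gap, and the number of zones depends on where it is set.

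Replicates 1 and 3 alone chose 361 zones (69.8%). All 3 replicates chose 89 (17.2%), replicates 2 and 3 chose 47 (9.09%), and replicates 1 and 2 chose 20 (3.87%). Most zones therefore rest on the replicates with the most wide regions. The replicate that did not choose a zone held no wide region with a summit in it, by construction, but it usually held other regions. In the 361 zones of replicates 1 and 3, replicate 2 had an EPIC2 region in 352 (97.5%) and a summit in 309 (85.6%). Its regions covered a median of 48.1% of the zone, and the longest of them had a median of 5800 bases. Replicate 1 had a region in each of the 47 zones of replicates 2 and 3 and covered a median of 71.2%. Replicate 3 had a region in each of the 20 zones of replicates 1 and 2 and covered a median of 82.8%. The third replicate thus more often held several shorter regions than none.

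Zones were 10200 to 113800 bases wide, with a median of 21600 and quartiles of 16400 and 29800. They added up to 13.5 Mb, or 0.496% of the 2725 Mb of 1 Mb windows with a call. The median other consensus origin was 4000 bases wide, although the widest had 69400 bases. In 418 zones, each choosing replicate gave exactly 1 wide region. The bases shared by wide regions of at least 2 replicates made up a median of 57.1% of a zone. Where replicates 1 and 3 each gave 1 wide region and these overlapped (355 zones), their edges lay a median of 3800 bases apart, and the overlap was a median of 54.8% of the union. Edges lay a median of 3600 bases apart between replicates 1 and 2 (80 zones) and 6100 bases apart between replicates 2 and 3 (97 zones). Recurrence of a zone as a place was set by the rule, and its ends were shared to within some kilobases only.

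Nearly every zone held more than 1 summit of 1 choosing replicate, although the rule asked for 1 summit per wide region. Where at least 2 summits of its own replicate were asked of each wide region, 350 zones were left. Zones are long, and stretches as wide on each side held 0.173, 0.0611 and 0.118 summits per kb in replicates 1 to 3. How many of these stretches held more than 1 summit was not counted. At least 2 summits of 1 choosing replicate lay in 509 zones, and 394 (76.2%) had at least 2 in every choosing replicate. At least 5 summits of 1 replicate lay in 277 zones (53.6%), and at least 10 lay in 58 (11.2%). The other 8 zones had exactly 1 summit in each choosing replicate. Zones with a summit in all 3 replicates numbered 462.

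The zones held 2869 summits of replicate 1, 1172 of replicate 2 and 1810 of replicate 3. These were 1.33%, 1.89% and 1.12% of the summits of each replicate on chromosomes 1 to 22. The median zone held 5, 2 and 3 summits, and the highest numbers in a zone were 30, 13 and 25. Replicate 1 had a summit in every zone, replicate 3 had none in 3 zones, and replicate 2 had none in 52. The order of the replicates followed their total numbers of summits.

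Per length, summits of replicates 1 to 3 stood at 0.212, 0.0867 and 0.134 per kb of zone, which averaged 0.144 ± 0.0634 (SD, n = 3). In flanks as wide as the zone on each side the values were 0.173, 0.0611 and 0.118 per kb. Outside all consensus origins they were 0.0590, 0.0142 and 0.0454 per kb. In every replicate the zones stood above their flanks and the flanks above the rest of the span. Other consensus origins held 0.308, 0.120 and 0.218 summits per kb, more than the zones in each replicate, but each of them holds a summit by construction over a short width, which raises this value.

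Summit density moved little with zone width. In replicate 1 it was 0.224, 0.217, 0.215 and 0.206 per kb from the narrowest to the widest of 4 classes of zones. In replicate 2 it was 0.0855, 0.1003, 0.0834 and 0.0839 per kb over the same classes. In replicate 3 it was 0.146, 0.136, 0.131 and 0.131 per kb. The number of summits rose with width instead, with a Spearman rho of 0.76, 0.57 and 0.64 across the 517 zones in replicates 1 to 3, as a description over zones that share libraries. Wide zones were thus longer runs of a similar density and not denser ones.

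Within a zone, neighbouring summits of replicate 1 lay a median of 3527 bases apart. Those of replicates 2 and 3 lay 6327 and 5336 bases apart, and the 3 medians averaged 5063 ± 1420 bases (SD, n = 3). The closest summits in zones were 413, 463 and 497 bases apart, and 30.2%, 15.3% and 18.9% of spacings were under 2000 bases. The SD of the spacings was 0.773 ± 0.0268 (SD, n = 3) of their mean, a broad spread. This value does not show whether some spacings were more common than others, which was not tested. Over all summits of chromosomes 1 to 22 the median spacing was 7257, 23917 and 9513 bases. In other consensus origins that held several summits it was 1744, 1964 and 2024 bases. The width of the region bounds the spacing there, as the width of the zone bounds it inside zones.

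**Figure D1:**
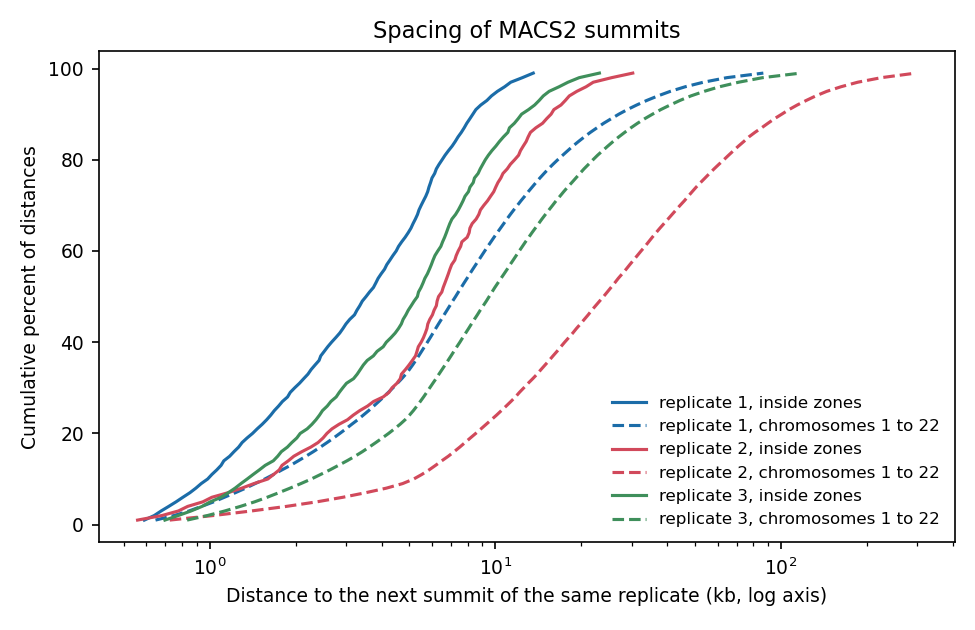
Cumulative percent of distances between neighbouring summits of the same replicate (x axis in kb, log scale) inside zones (solid) and on chromosomes 1 to 22 (dashed). The curves inside zones lie to the left of those over the chromosomes in each replicate, and replicate 2 has the longest spacing in both. Spacing inside a zone cannot exceed the zone width, so a shift to the left is partly built in.

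The same sites recurred inside the zones to a degree that depended on the pair of replicates. Around summits of replicate 1, summits of replicate 2 stood at 0.554 per kb within 250 bases and at 0.0302 per kb from 2000 bases on. In all, 789 of 1172 summits of replicate 2 (67.3%) had a summit of replicate 1 within 250 bases. Summits of replicate 3 stood at 0.351 per kb within 250 bases of those of replicate 1 against 0.103 per kb from 2000 bases on, and 500 of 1810 (27.6%) were that near. Around replicate 2, only 149 of the 1690 summits of replicate 3 in zones that held summits of both (8.82%) were within 250 bases. Near density exceeded far density in all 6 directed pairs, by 1.92 to 18.3 times, and replicates 1 and 2 shared exact positions most. By number, zones were chosen most often by replicates 1 and 3, which had the most wide regions with a summit. These were 985 and 2723, against 265 in replicate 2, so this count is not a measure of likeness between replicates.

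Summits of any replicate that followed each other within 500 bases were joined into 4264 sites, a median of 7 per zone and at most 42. Of these, 1386 (32.5%) held summits of at least 2 replicates and 181 (4.24%) of all 3. At least 1 site of 2 or more replicates lay in 482 zones (93.2%), and at least 2 such sites lay in 365 (70.6%). Most zones thus had several sites with summits of at least 2 replicates, while most single sites came from 1 replicate. How many joins the density of summits in zones would give by itself was not tested.

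Summit scores, the −log10 of the q-value that MACS2 gave, were of the same order in zones and in other consensus origins. The median score in zones was 6.22, 4.93 and 4.05 in replicates 1 to 3. In other consensus origins it was 6.31, 4.77 and 4.23. Over all summits it was 4.83, 3.38 and 3.92, lower than in zones in each replicate. The highest score of any summit in a zone was 116, from replicate 2 on chromosome 17, 65980601 to 66023800, where the top summits of replicates 1 and 3 scored 62.0 and 8.12. With zones and origins chosen by the other replicates only, the median score in zones minus that in other consensus origins was −0.43, 0.89 and 0.12, a mean of 0.20 ± 0.66 (SD, n = 3). The sign differed between replicates, and the difference was within their spread.

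Because width and summits chose the zones, each replicate was also left out of the choice in turn and then read in the zones of the other replicates. Leaving out replicate 1 gave 138 zones, replicate 2 gave 454 and replicate 3 gave 108. The replicate left out had an EPIC2 region in 100%, 98.0% and 100% of them, a mean of 99.3% ± 1.14 (SD, n = 3). The same share for other consensus origins of the same replicates was 94.3%, 40.2% and 60.2%. These are narrower and lay less often on chromosomes 8, 10, 16, 17 and 19, where most zones lay. On those chromosomes alone the share was 100%, 99.5% and 100% of zones. For other consensus origins there it was 95.5%, 55.4% and 76.3%. The part of width in this difference was not tested. The left-out replicate covered 81.0%, 55.3% and 89.7% of zone bases. It covered 61.8%, 24.6% and 55.6% of the bases of those other consensus origins. It covered 62.9%, 37.0% and 75.6% of the flanks, and 9.70%, 5.03% and 11.8% of the whole span. Zones were thus covered above their flanks and above other consensus origins in 3 of 3 replicates, and all of these lay far above the span.

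A region of at least 10000 bases of the left-out replicate overlapped 65.9%, 20.5% and 81.5% of the zones. Such a region thus met most zones for replicates 1 and 3 and a minority for replicate 2, which had the fewest wide regions. Among all EPIC2 regions of replicates 1 to 3, 0.809%, 0.811% and 4.04% were that wide, a share per region and not per zone. The same share for flanks or other consensus origins is not given. Recurrence of width therefore cannot be told apart from the number of wide regions in the neighbourhood.

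Summits of the left-out replicate stood at 0.219, 0.0842 and 0.139 per kb of zone and at 0.171, 0.0638 and 0.119 per kb of flank. The ratio was 1.29, 1.32 and 1.17, a mean of 1.26 ± 0.0777 (SD, n = 3), above 1 in 3 of 3 replicates. Set against other consensus origins of the same choosing replicates, the ratio was 0.862, 1.10 and 0.929, a mean of 0.965 ± 0.125 (SD, n = 3), so zones and other consensus origins did not differ beyond the spread of the replicates. Across the zone, the inner part had 0.226, 0.0883 and 0.117 summits per kb and the outer part 0.222, 0.0824 and 0.169. Beyond 1.5 zone widths from the centre it was 0.182, 0.0702 and 0.129 per kb. In replicate 3 the inner part was thus not raised above the surroundings, and only the outer part was. The order of inner and outer parts was not the same in all replicates, and no central maximum common to them was seen.

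**Figure D2:**
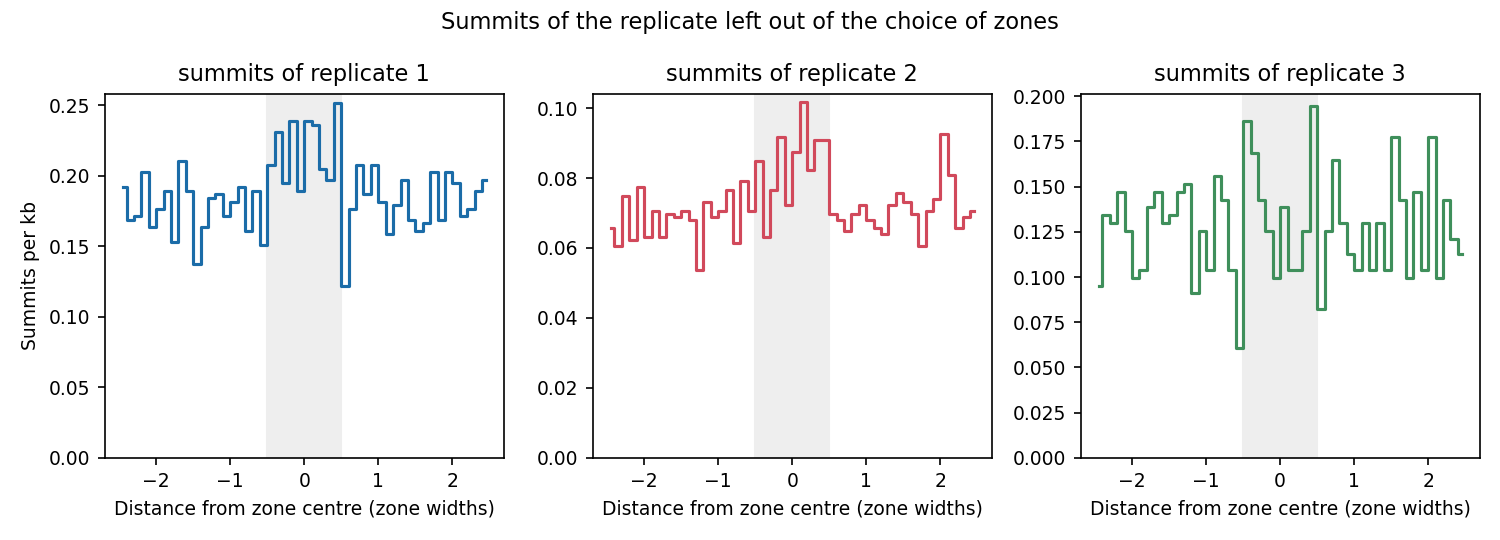
Summits per kb of the replicate left out of the choice against distance from the zone centre in zone widths, with the zone shaded and a y axis of its own for each replicate. Density is raised over the shaded part in replicates 1 and 2, is more scattered in replicate 3, and remains high in the neighbourhood of the zones.

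The zones were concentrated on a few chromosomes. Chromosome 17 held 178 zones (34.4%), or 2.23 per Mb. Chromosome 19 held 95 (1.64 per Mb) and chromosome 16 held 63 (0.778 per Mb). Next in zones per Mb came chromosomes 8 (56 zones, 0.389 per Mb), 10 (44 zones, 0.328 per Mb) and 22 (8 zones, 0.222 per Mb). Chromosomes 5, 13 and 18 held none, and 8 chromosomes held 1 to 4. The mean over chromosomes 1 to 22 was 0.190 zones per Mb.

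Chromosomes 8, 10, 16, 17 and 19, grouped after their values were seen, held 436 zones (84.3%) on 18.2% of the span and with 30.9% of consensus origins. On chromosome 17, 5.20% of consensus origins lay in zones, against 1.19% over chromosomes 1 to 22. In single replicates these 5 chromosomes held 70.5%, 81.9% and 60.3% of the wide regions with a summit, a mean of 70.9% ± 10.8 (SD, n = 3). Of the 89 zones in all 3 replicates they held 94.4%. Chromosomes 16, 17 and 19 had the most wide regions per Mb in each replicate. Chromosome 22 stood above chromosomes 8 and 10 by that measure in replicates 1 and 3 (0.611 and 2.33 per Mb) and had 1 wide region in replicate 2.

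**Figure D3:**
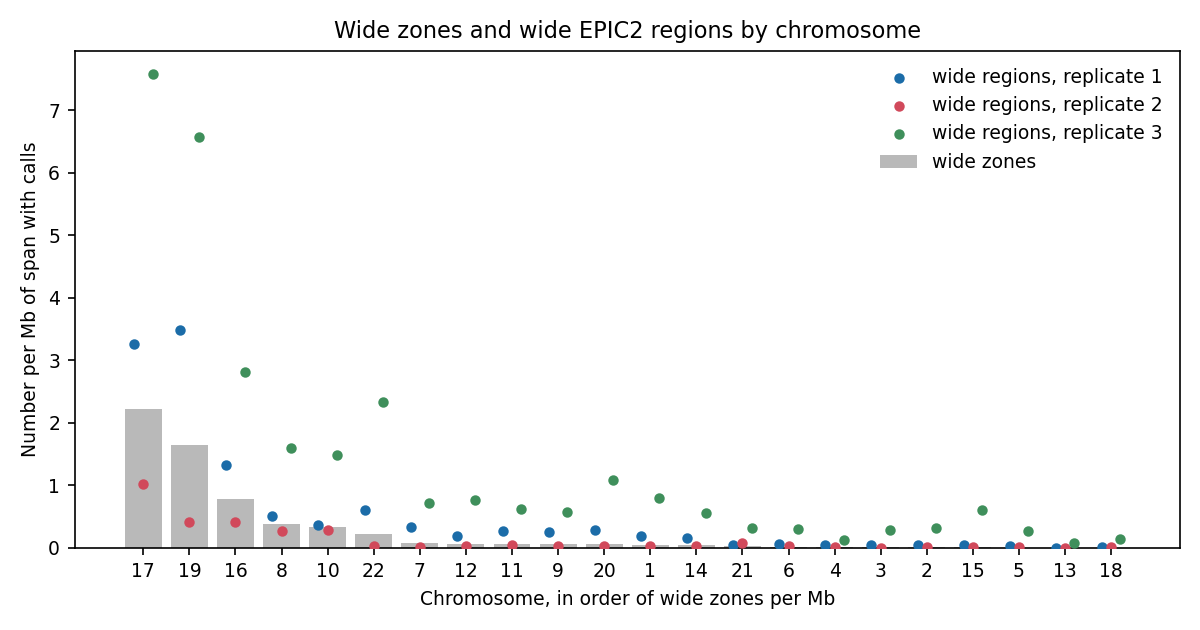
Wide zones (grey bars) and wide EPIC2 regions with a summit in each replicate (points), as number per Mb of span with calls, by chromosome in order of zones per Mb. Chromosomes 17 and 19 stand highest in replicates 1 and 3 (3.26 and 3.48, 7.58 and 6.57 per Mb), and the right-hand chromosomes lie near 0 in the bars.

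Another measure followed this order in part. The number of EPIC2 regions per MACS2 summit, as a mean over replicates, was 0.932 ± 0.336 (SD, n = 3) on chromosome 17 and 0.851 ± 0.0822 (SD, n = 3) on chromosome 19. It was 0.787 ± 0.335, 0.759 ± 0.146 and 0.724 ± 0.241 (SD, n = 3) on chromosomes 8, 16 and 10. The value was 0.786 on chromosome 22 and 0.394 to 0.637 on the other chromosomes. As means, broad calls were thus more frequent per narrow call on the chromosomes with most zones per Mb, chromosome 22 included. The replicates differed widely on chromosomes 8, 10 and 17. HCT116 is known to carry extra copies of parts of chromosomes 8, 10 and 17. Copy number was not measured, the sources used here name no control library for the calls, and the part of either in the spread of zones was not tested.

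Within chromosomes, the zones lay in a few stretches. On chromosome 8 the first zone started at 67931201, and 40 of 56 lay between 140 and 150 Mb, with 43.4 consensus origins per Mb. Between 120 and 130 Mb there were 39.4 consensus origins per Mb and 4 zones. On chromosome 17, 94 zones lay between 70 and 80 Mb, and on chromosome 16, 46 lay between 80 and 90 Mb. On chromosome 10, 24 lay between 100 and 110 Mb, and on chromosome 19, 43 lay in the first 10 Mb. Stretches with many origins thus differed in their number of zones.

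Over 293 steps of 10 Mb, 70 held a zone, and the Spearman rho between zones and consensus origins per Mb was 0.60, as a description across neighbouring steps. Of 40 steps with at least 30 consensus origins per Mb, 14 had at least 1 zone per Mb and 4 had none. On chromosome 9, the step from 130 to 140 Mb had 49.3 consensus origins per Mb and 6 zones, or 0.6 per Mb. In windows of 1 Mb, 179 of 2725 (6.57%) held a zone, and 60 windows with at least 3 zones held 371 of them. The fullest windows, with 16 zones each, were 144 to 145 Mb of chromosome 8 and 79 to 80 Mb of chromosome 17. Windows with a zone held a median of 53 consensus origins and windows without held 8.

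The nearest other zone lay a median of 33000 bases away (quartiles 5600 and 150900, 515 zones). With zones spread evenly there would be 1 per 5.27 Mb. Another zone lay within 10 kb of 151 zones (29.2%), within 100 kb of 348 (67.3%) and within 1 Mb of 451 (87.2%). On the 5 chromosomes with most zones the median was 26800 bases, and on the other 17 it was 1271000 bases. The nearest other consensus origin was closer still, a median of 2200 bases away. The zones were thus grouped among other origins and did not stand alone.

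**Figure D4:**
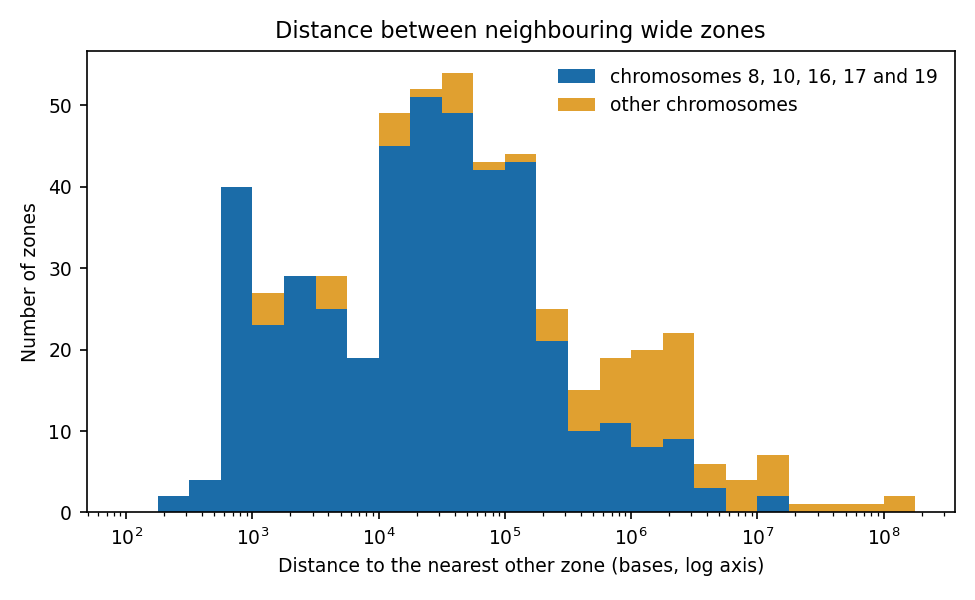
Number of zones by distance to the nearest other zone (bases, log scale), for chromosomes 8, 10, 16, 17 and 19 and, stacked on them, the other chromosomes. Most of the first set lies under 1 Mb around the overall median of 33000 bases, and the other chromosomes make up most distances above 1 Mb.

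Zones no more than 100 kb apart formed 85 clusters with 348 zones. The largest held 33 zones on chromosome 17, from 78855201 to 80766400, and zones took up 67.4% of its 1911200 bases. The next held 21 zones on chromosome 17, 72680001 to 74163200, and 19 on chromosome 8, 144097401 to 145249800. Zones took up 59.5% and 55.2% of these. The number of zones in such a cluster depends on the 10000-base limit and on breaks between EPIC2 regions.

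The smallest gap was 200 bases, 1 step of the grid, between chromosome 16, 88838801 to 88881000, and chromosome 16, 88881201 to 88896800. The former held 13, 5 and 7 summits in replicates 1 to 3 and the latter 3, 2 and 2. The zone farthest from any other was on chromosome 6, 159310001 to 159326400, at 101837200 bases, with 5, 1 and 6 summits. An isolated zone could thus hold as many summits as one in a cluster. Chromosomes 15 and 21 had 1 zone each, at 67343001 to 67354400 and at 10772601 to 10860800.

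The zone on chromosome 21 was 88200 bases wide and was chosen by replicates 2 and 3. It held 7, 6 and 7 summits. It lay 325558 bases from a stretch of at least 1 Mb without any call, and 3 zones in all lay within 1 Mb of such a stretch. Replicate 1 covered 36.1% of it and replicates 2 and 3 covered 96.8% and 99.1%. Its summit density was 0.0794, 0.0680 and 0.0794 per kb in replicates 1 to 3, beside lower quartiles over zones of 0.164, 0.0538 and 0.0885 per kb. It was thus below the lower quartile in replicates 1 and 3 and above it in replicate 2.

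The widest zone in all 3 replicates was on chromosome 17, 79945601 to 80059400 (113800 bases). It held 20, 13 and 8 summits in replicates 1 to 3, with median spacings of 5582, 7377 and 9457 bases. EPIC2 regions covered 96.8%, 75.4% and 95.4% of it. It was a chain of 9 wide regions, the widest of which had 38200, 24200 and 44400 bases, so no replicate spanned it with 1 region.

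The zone with most summits was on chromosome 17, 49156401 to 49261000 (104600 bases), with 28, 9 and 25 summits, 62 in all. Its summits lay closer than in the widest zone, at medians of 2600 and 4368 bases in replicates 1 and 3. On chromosome 8, 144979401 to 145078400 (99000 bases) held 30, 12 and 11 summits, and 1 region of replicate 1 spanned 52600 bases of it. That region was the widest of replicate 1 on chromosomes 1 to 22. The next zones were on chromosome 17, 79184001 to 79273400 (89400 bases; 16, 5 and 15 summits), and on chromosome 8, 145505601 to 145589000 (83400 bases; 19, 6 and 9 summits). In all 5, replicate 1 had the most summits and replicate 3 the highest or the second highest coverage.

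**Figure D5:**
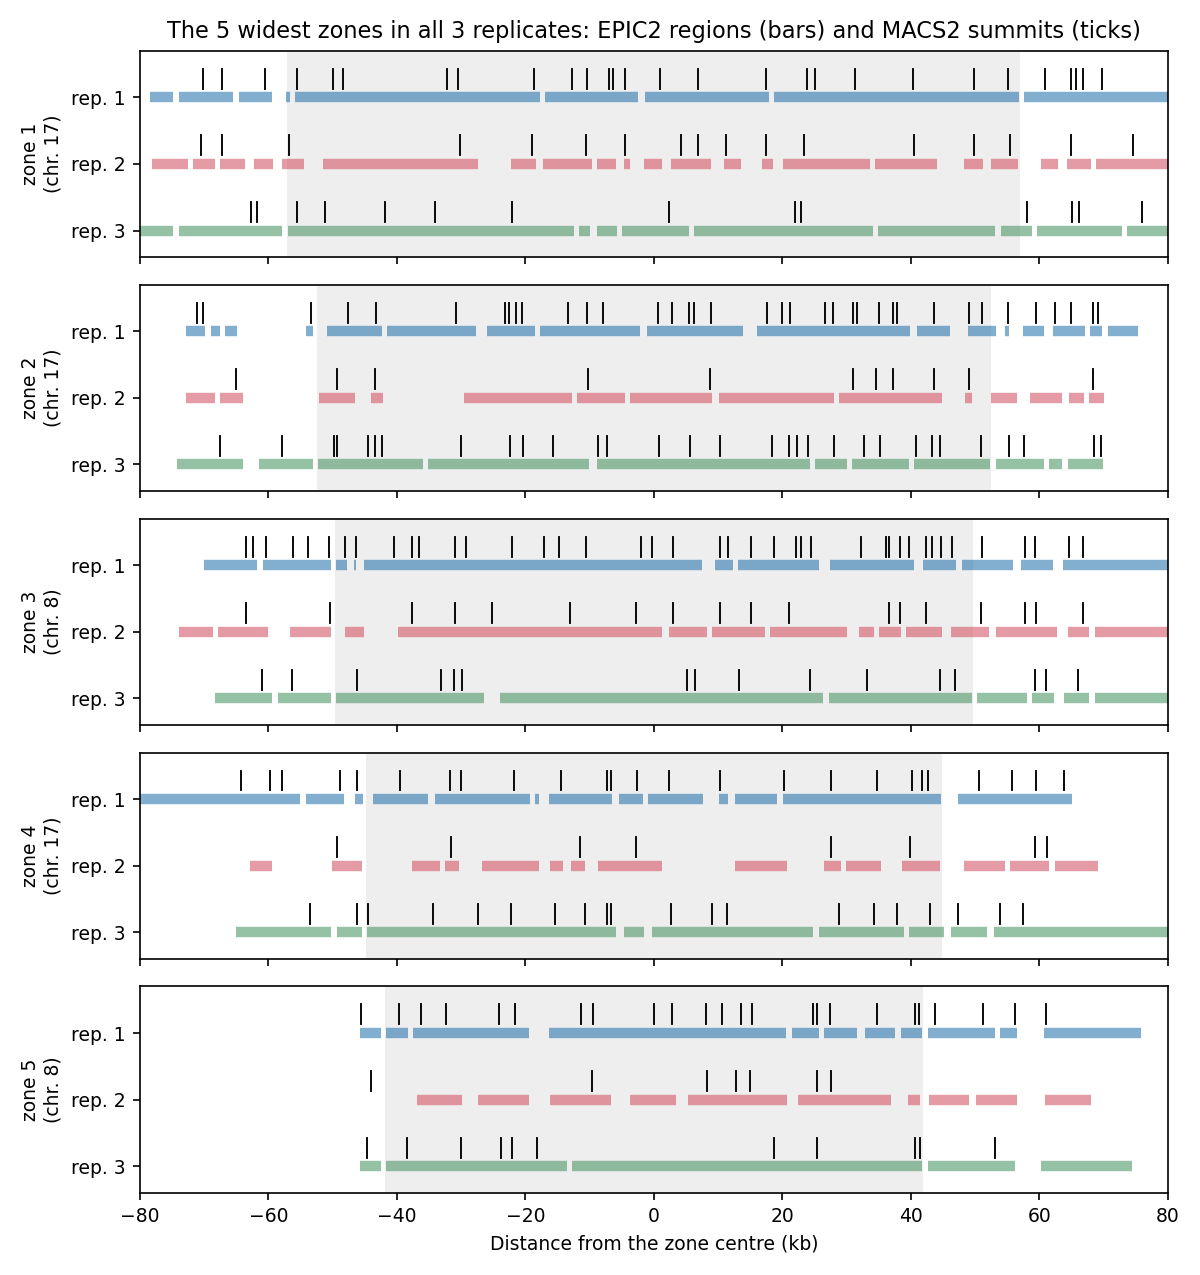
EPIC2 regions (bars) and MACS2 summits (ticks) of each replicate in the 5 widest zones chosen by all 3 replicates, against distance from the zone centre in kb, with the zone shaded. Each zone is a chain of regions, with breaks that are longest in replicate 2, summits are spread along it, and regions and summits go on outside the shaded part.

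The densest zones were short. On chromosome 12, 112813601 to 112824000 (10400 bases) held 4, 1 and 3 summits, or 0.337 per kb as a mean of the choosing replicates 1 and 3. Both of these covered it almost end to end, and replicate 2 had 1 region of 3200 bases inside. On chromosome 17, 48736001 to 48751000 (15000 bases) held 7, 4 and 3 summits. Summits of replicates 1 and 2 at 48746092 and 48746089 were 3 bases apart and were scored 11.3 and 29.2, and replicate 3 had none within 1 kb of them. The other dense zones were on chromosome 16, 81124801 to 81140400 (6, 2 and 4 summits), on chromosome 17, 56995801 to 57013400 (7, 1 and 4), and on chromosome 12, 52411401 to 52428000 (5, 1 and 5). All 5 were chosen by replicates 1 and 3.

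The fewest summits, 2 in all, lay in chromosome 11, 65333801 to 65348000, and in chromosome 12, 50724601 to 50738600. Each had 1 summit in replicate 1, none in replicate 2 and 1 in replicate 3. In the former the summits scored 1.61 and 1.99 while 1 region of replicate 1 spanned all 14200 bases. Broad and narrow calls thus parted in these zones, which were wide with hardly a summit.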

How the data were processed

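SNS-seq was performed on untreated HCT116 cells in 3 replicates. The study describes triplicate experiments on cultures grown in parallel, so the SD covers the spread between cultures of 1 line. Per the study's methods and the submitters' processing notes, the authors mapped reads with Bowtie2 2.3.4.2 (hg19), removed duplicates with Picard 2.18.17 and made calls for each replicate with MACS2 2.1.0.20151222 and EPIC2, at a threshold of 0.1 on the q-value or FDR. The deposited EPIC2 lists give a region and a score of a kind the sources used here do not state, which was not used to choose zones. The deposited MACS2 lists give summits with the −log10 of a q-value, read so because the lowest value is 1.00. EPIC2 starts and ends fall on a 200-base grid. Read depth is unknown.

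Zones were built as stated in the report with Python 3.11.15, numpy 2.4.6 and scipy 1.17.1, with functions tested on simulated regions. Zones and alternatives were chosen with earlier results of these data known. Named zones were the 5 widest in all 3 replicates, the 5 with the highest summit density, those with fewest and most summits, the closest pair and the farthest. The zones alone on a chromosome, near a stretch without calls or with the top score, the clusters, and chromosomes beyond the 3 with most and the 3 with fewest zones per Mb were named after their values were seen. Alternatives changed the width limit, the summit score, the number of summits, the overlap, the number of replicates, the number of regions per replicate, the flank and the replicates used. Leaving out chromosomes 8, 10, 16, 17 and 19 was chosen after seeing the data.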

Additional observations from a re-analysis of the deposited data

How the results depend on the processing

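Of 84 alternative values, 59 moved by less than the limit set for them, 24 moved by more and 1 turned. The limit was 1.5 times for the number of zones and the zones per Mb, and the leading chromosome for zones as a share of origins. For the others it was 1 SD over replicates. For the distance to the nearest zone this was the SD of another quantity, the median distance between wide regions of each replicate alone (38100, 155200 and 22800 bases). That SD, 72430 bases, exceeds the distance itself, so this limit was loose. The number of zones (517) was 1098 at 8000 bases, 141 at 15000 bases, 127 with equal numbers of regions per replicate, 89 in all 3 replicates, 81 without chromosomes 8, 10, 16, 17 and 19 (chosen after seeing the data), and 108 to 454 without 1 replicate (138 without replicate 1, 454 without replicate 2, 108 without replicate 3). Zones per Mb on chromosome 17 (2.23) were 3.75 at 8000 bases, 0.875 at 15000 bases, 0.800 with equal numbers, 1.48 with 50% reciprocal overlap, 0.563 in all 3 replicates, 3.40 for the core of at least 2 replicates and 0.588 to 2.08 without 1 replicate (0.750 without replicate 1, 0.588 without replicate 3). Chromosome 17 stayed first, and without the 5 chromosomes chromosome 22 led at 0.222. The median distance to the nearest zone (33000 bases) was 63200 at 15000 bases, 70600 with equal numbers, 70200 with reciprocal overlap, 50600 with at least 2 summits per region, 19600 for the core, 112800 in all 3 replicates, 1271000 without the 5 chromosomes, and 35000 to 116800 without 1 replicate (116800 without replicate 1, 101800 without replicate 3). The left-out summit ratio (1.26) was 1.16 with equal numbers and 1.93 without the 5 chromosomes (8 to 74 zones per replicate). It was 0.965, turning below 1, against other consensus origins in place of flanks. Its values without 1 replicate, 1.23 to 1.30, were means of 2 of the 3 left-out ratios, and the omitted replicate still chose zones. The left-out share of zones with an EPIC2 region was treated likewise. A mean of 2 of 3 values cannot move by 1 SD, so these alternatives counted as moving by less from the outset. The left-out share of zones with an EPIC2 region (99.3%) was 97.3% at 8000 bases, 96.8% without the 5 chromosomes and 85.0% where 50% of the zone had to be covered. Summits per kb and median spacing stayed within 1 SD under each alternative run, at 0.122 to 0.174 per kb and 4363 to 5716 bases without 1 replicate. Counts of zones fall with a stricter limit by construction, and the cause of the other moves was not tested. No paired analysis was possible because there was 1 group. Unknown read depth limits the comparison of replicates, which differ in numbers of regions and summits.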
